A study of Mus musculus with 8 samples.

Results

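Translational efficiency (TE), the number of ribosome footprints on an mRNA relative to its transcript level, was compared between inguinal white adipose tissue (iWAT) with and without Ythdf1 in adipocytes. All 8 of the 8 libraries of the series entered the comparison, 2 for each genotype in RNA-seq and 2 in Ribo-seq. Both genotypes were male C57BL/6 mice, 9 weeks old, that had spent 7 days at 4 °C, a treatment that induces beige, heat-producing adipocytes in this depot. Y1CTL mice were Ythdf1 flox/flox. Y1cKO mice carried the same floxed alleles and Adipoq-Cre, which removes exon 4 of Ythdf1 in adipocytes. Vessels, immune cells and progenitors of the depot do not express this Cre, so whole tissue holds an intact gene in part of its cells. The protocol divided each lysate between RNA-seq (1/5, polyadenylated RNA) and Ribo-seq (4/5, fragments protected from RNase I). The labels do not say that replicates came from separate animals, so the p-values below reflect the spread of these particular libraries, and that spread may be technical.

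YTHDF1 is a cytoplasmic protein that binds N6-methyladenosine (m6A), a methyl mark that METTL3 and METTL14 write on adenosines of mRNA. It is known for promoting the translation of the mRNAs it binds, whereas its relative YTHDF2 is known for promoting their decay. A loss of translation would lower footprints at an unchanged transcript level, while a change of transcript level alone also moves the TE ratio, in the opposite direction, if footprints stay where they were. Each gene below is therefore described by both parts. The TE change is the log2 footprint change minus the log2 transcript change, Y1cKO minus Y1CTL, on the log2(RPKM + 0.5) scale, after the 4 libraries of an assay had been brought to a common median. It was obtained for 11792 of 17264 genes, those with a mean of at least 0.5 RPKM in each assay. RPKM values of single libraries are given as deposited, before the libraries were brought to a common median. A gene was called footprint-led where its footprint change was at least 2 times its transcript change in size, transcript-led in the reverse case, and mixed otherwise.

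Depth and cell content of the libraries bear on every value below. RNA-seq depth differed between genotypes, with 3958284 and 4963613 reads in Y1CTL and 12211351 and 16429015 in Y1cKO, while Ribo-seq libraries held 7364523 to 11862838 reads. Adipocyte identity genes were abundant in every library, with none of the 19 at 0. T cell markers summed to 3.36 to 4.55 RPKM over 16 genes in 3 RNA-seq libraries, to 176 RPKM in Y1CTL RNA-seq replicate 2 and to 520 to 682 RPKM in the 4 Ribo-seq libraries. B cell and lymph node markers behaved alike, at 3.76 to 6.03 RPKM in those 3 RNA-seq libraries, 416 RPKM in Y1CTL RNA-seq replicate 2 and 1187 to 1627 RPKM by Ribo-seq. Skeletal muscle genes summed to 372 RPKM in Y1cKO RNA-seq replicate 1 and to 27.5 to 53.1 RPKM in the remaining 3. These 2 RNA-seq libraries stand apart. The fit without both of them is called the reduced fit below, and a TE change or list median that it moved by over 1.5 times is given from both fits. The protocol divides 1 lysate between the assays, whereas lymphoid markers were high in every Ribo-seq library and in only 1 RNA-seq library. These facts are in conflict, the reason was not tested, and a TE ratio may set footprints against transcripts of unlike tissue content. In bulk tissue, fewer cells of a type and less RNA per cell cannot be told apart.

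The TE change reached an adjusted p of 0.05 in no gene (limma interaction test, 0 of 11792 genes, 0%; smallest adjusted p 0.535), and voom on the recovered reads also called 0. At an unadjusted p under 0.05 there were 737 genes, of which 351 (2.98% of the genes tested) had higher and 386 (3.27%) lower TE in Y1cKO. With a log2 change beyond 1 as well, 144 genes (1.22%) were higher and 156 (1.32%) lower. These 300 genes are described in what follows as genes past both lines, and none of them is a call at a controlled error rate. The split of 48.0% higher rests on the scaling. Without it the median TE change over all genes was -0.17 in place of -0.02, and 97 genes were higher and 272 lower, 26.3% higher.

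The TE change across genes was mostly a change of the RNA-seq denominator. The SD over genes was 0.51 for the RNA-seq change and 0.23 for the Ribo-seq change, and 679 genes moved by more than 1 log2 unit in RNA-seq against 33 in Ribo-seq. Past both lines of their own test, 169 genes (1.43%) were higher and 138 (1.17%) lower in RNA-seq, and 9 (0.0763%) were higher and 12 (0.102%) lower in Ribo-seq, with 0 genes past the adjusted p in either assay (0%; 973 genes at an unadjusted p under 0.05 in RNA-seq and 343 in Ribo-seq). The spread between replicates was wider in RNA-seq too. The root mean square SD between replicates was 0.58 log2 units in Y1CTL RNA-seq and 0.27 in Y1cKO RNA-seq, against 0.30 and 0.21 in Ribo-seq. Of the 300 genes past both lines, 229 (76.3%) were transcript-led, 56 mixed and 15 (5.00%) footprint-led. Among all genes tested, 50.8% were transcript-led and 15.8% footprint-led.

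Measured footprint and transcript changes were nearly unrelated across genes. The 243 genes whose RNA-seq change exceeded 1 had a median RNA-seq change of 1.20 and a median Ribo-seq change of 0.10. The 436 genes with an RNA-seq change below -1 had a median RNA-seq change of -1.37 and a median Ribo-seq change of 0.09, so that the footprints of both sets sat at about the same level. Conversely, the 281 genes whose footprints were higher by more than 0.5 had a median RNA-seq change of -0.07, and so did the 189 genes whose footprints were lower by more than 0.5. Pearson's r between both changes over the 11792 genes was -0.04, and -0.03 without the lymphoid, muscle and erythroid lists. It was 0.11 over the 11792 genes with the RNA-seq change taken as Y1cKO replicate 2 minus Y1CTL replicate 1, in the scaling of all 8 libraries. This is a description across genes, which are not independent replicates. The SD of the Ribo-seq change, 0.23, lay between the replicate SDs of Ribo-seq, 0.21 and 0.30. That of the RNA-seq change, 0.51, lay between 0.27 and 0.58. With replicate spread of this size, r near 0 and flat medians cannot show whether footprints followed transcripts. The part of replicate spread in them was not tested.

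**Figure D1:**
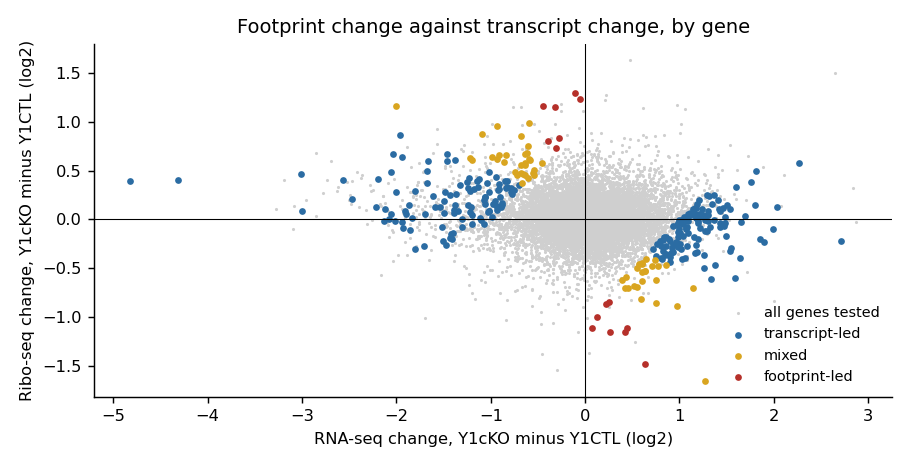
Each point is 1 of 11792 genes, with its RNA-seq change on the horizontal and its Ribo-seq change on the vertical axis, both log2 and Y1cKO minus Y1CTL. The 300 coloured genes are past both lines for TE, and most of them lie along the horizontal axis: 229 are transcript-led (blue), 56 mixed (yellow) and 15 footprint-led (red).

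The genes with the smallest p for a higher TE were nearly all transcript-led: 11 of the first 12, each with a lower transcript value in Y1cKO. Tmem38b encodes a cation channel of the endoplasmic reticulum. Its transcript measured 266 and 454 RPKM in Y1CTL and 28.1 and 12.9 RPKM in Y1cKO, while its footprints measured 25.1 and 14.9 RPKM in Y1CTL and 25.6 and 25.8 RPKM in Y1cKO. The transcript values of the genotypes lie far apart and the footprint values lie close together. Its TE change was 4.71 (SE 0.55; limma adjusted p = 0.535), made of a transcript change of -4.31 and a footprint change of 0.40. Ang, the secreted ribonuclease angiogenin, had 48.3 and 145 RPKM of transcript in Y1CTL against 3.59 and 2.17 RPKM in Y1cKO, with footprints of 13.0 and 24.3 RPKM against 23.2 and 23.9 RPKM. Its TE change was 5.22 (SE 0.69), and the gene has close relatives among which the authors' counting may have divided reads. Xkrx, a membrane protein of the XK family, had 35.8 and 74.3 RPKM of transcript in Y1CTL and 7.69 and 5.90 RPKM in Y1cKO, with footprints at 0.504 to 1.38 RPKM in all 4 libraries.

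The other genes of this set differed by less. Hspb11, also known as the intraflagellar transport protein IFT25, had 14.5 and 12.9 RPKM of transcript in Y1CTL and 5.25 and 6.21 RPKM in Y1cKO, with footprints of 24.6 and 23.7 RPKM against 24.8 and 26.6 RPKM. Its footprints differed by a log2 change of 0.09 and its transcript by -1.35. Pafah1b3, a catalytic subunit of platelet-activating factor acetylhydrolase, had a TE change of 1.49 with a footprint change of 0.09. The chemokine Ccl12 had a TE change of 1.75 with a footprint change of -0.11, and the chemokine receptor Ccr4 a TE change of 2.59, with 1.44 and 1.51 RPKM of transcript in Y1CTL and 0.0292 and 0.0434 RPKM in Y1cKO. These genes rested on few transcript reads. Pafah1b3 had 9 and 12 in Y1CTL against 9 and 11 in Y1cKO, Ccl12 7 and 6 against 4 and 3, and Ccr4 16 and 21 against 1 and 2. Lars2, the mitochondrial leucyl-tRNA synthetase, was listed at 9159 to 34138 RPKM by RNA-seq and at 15.9 to 17.8 RPKM by Ribo-seq, so that its TE change of 1.75 rests on an RNA-seq level out of proportion to its footprints. Mmgt2, a membrane magnesium transporter, had a TE change of 1.54, on 14 and 14 transcript reads in Y1CTL and 17 and 13 in Y1cKO. St6galnac6, a sialyltransferase, was the only mixed gene of the 12: its footprints measured 1.93 and 1.22 RPKM in Y1CTL and 3.77 and 3.30 RPKM in Y1cKO, with transcripts of 6.46 and 7.90 against 4.96 and 5.24 RPKM. Both parts of its TE change of 1.58 pointed one way, with a footprint change of 0.98 and a transcript change of -0.60. The set also held the histone genes H2bc15 and H1f3, described with the histones.

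Lower TE was the mirror image: of the 12 genes with the smallest p, 9 were transcript-led, with more transcript in Y1cKO and footprints that moved little. Gas1, a cell surface protein that binds Hedgehog and marks fibroblasts and progenitors, had 1.09 and 1.92 RPKM of transcript in Y1CTL and 8.51 and 6.22 RPKM in Y1cKO. The Gas1 transcript rested on 5 and 11 reads in Y1CTL and 120 and 118 in Y1cKO. Its footprints measured 4.32 and 5.42 RPKM in Y1CTL and 4.47 and 3.84 RPKM in Y1cKO and overlapped between genotypes. Its TE change was -2.05 (SE 0.37; limma adjusted p = 0.746), with a transcript change of 1.85. Gstt1, a glutathione transferase, had 8.04 and 8.94 RPKM of transcript in Y1CTL against 26.2 and 25.8 RPKM in Y1cKO, with overlapping footprints of 69.1 and 97.9 RPKM against 99.7 and 89.8 RPKM, and a TE change of -1.20 (SE 0.27). Spon1, a secreted matrix protein, had 1.60 RPKM of transcript in both Y1CTL libraries and 5.86 and 6.25 RPKM in Y1cKO, with a footprint change of 0.15. The lysosomal membrane protein Bri3 was an exception to the flat footprints. Its transcript change was 1.81 and its footprint change 0.50, with 53.1 and 42.0 RPKM of footprints in Y1CTL and 74.6 and 59.6 RPKM in Y1cKO.

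Sugct, a mitochondrial coenzyme A transferase, had a TE change of -1.51, the tight junction protein Cldn15 one of -1.37, the vesicle fusion protein Vamp5 one of -1.33 and Rilpl1 one of -1.27, with footprint changes between -0.18 and 0.04. Their transcript reads in Y1CTL numbered 5 and 10 for Sugct, 30 and 29 for Cldn15, 3 and 6 for Vamp5 and 13 and 24 for Rilpl1. H1f10, a linker histone made outside S phase, had a TE change of -1.50 with a footprint change of -0.34. Sumf2, a sulfatase-modifying factor relative, was mixed: its footprints measured 20.3 and 24.7 RPKM in Y1CTL and 15.8 and 16.2 RPKM in Y1cKO, and its transcript 4.02 and 4.00 RPKM against 8.83 and 6.61 RPKM. Camk2n2, an inhibitor of CaM kinase II, was also mixed, with a TE change of -2.91, and rested on 5 and 1 footprint reads in Y1CTL and 0 in both Y1cKO libraries, where 0 reads allow up to 3 by counting error. Mogat2 was footprint-led and follows.

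Only 15 genes past both lines were footprint-led, 7 higher and 8 lower. Those with higher TE were Depp1, Dph3, Zdhhc16, Tmem56, Isca1, Sms and Tgtp1. Depp1, a regulator of autophagy downstream of FOXO factors, had footprints of 10.3 and 6.84 RPKM in Y1CTL and 21.7 and 20.7 RPKM in Y1cKO, with transcripts of 14.3 and 20.3 RPKM against 15.9 and 19.7 RPKM. Its footprints did not overlap between genotypes and its transcripts did. The footprint change was 1.29, the transcript change -0.11 and the TE change 1.39 (SE 0.36; limma adjusted p = 0.746). Dph3, which serves the synthesis of diphthamide on elongation factor 2, had footprints of 2.06 and 3.31 RPKM in Y1CTL and 6.41 and 7.198 RPKM in Y1cKO, with overlapping transcripts of 4.02 and 5.87 RPKM against 4.83 and 5.61 RPKM. Its TE change was 1.29, on 6 and 6 footprint reads in Y1CTL and 15 and 16 in Y1cKO. The palmitoyltransferase Zdhhc16 had footprints of 2.10 and 2.01 RPKM in Y1CTL and 3.59 and 3.88 RPKM in Y1cKO and a TE change of 1.04.

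In Isca1, Tmem56 and Tgtp1 the footprint values were low in 1 Y1CTL library. Isca1, an iron-sulfur cluster assembly factor, had footprints of 1.74 and 0.351 RPKM in Y1CTL and 3.26 and 2.002 RPKM in Y1cKO at transcripts of 32.6 to 41.0 RPKM. Tmem56 had 1.12 and 0.328 RPKM in Y1CTL and 2.03 and 2.14 RPKM in Y1cKO. Tgtp1, an interferon-induced GTPase, had 0.677 and 0.327 RPKM in Y1CTL and 1.18 and 1.33 RPKM in Y1cKO. In all of these the lowest value was Y1CTL Ribo-seq replicate 2, the shallowest Ribo-seq library. Isca1 had 8 and 1 footprint reads in Y1CTL and 12 and 7 in Y1cKO. Tmem56 had 11 and 2 against 16 and 16 reads, and Tgtp1 10 and 3 against 14 and 15. Sms, the spermine synthase, had footprints of 6.07 and 3.83 RPKM in Y1CTL and 7.47 and 10.4 RPKM in Y1cKO, with a TE change of 1.19.

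The footprint-led genes with lower TE were Acaa1b, Aqp11, Chd4, Fam83d, Inka2, Mogat2, Spaar and Tmem273. Mogat2, an acyltransferase that turns monoacylglycerol into diacylglycerol, had footprints of 2.10 and 3.39 RPKM in Y1CTL and 0.630 and 0.663 RPKM in Y1cKO. Its transcript was near the detection limit, at 0.426 and 0.113 RPKM in Y1CTL and 0.874 and 0.616 RPKM in Y1cKO. The TE change was -2.11 (SE 0.49; limma adjusted p = 0.746) and the footprint change -1.47. Its footprints were 25 and 25 reads in Y1CTL and 6 and 6 in Y1cKO. Acaa1b, a peroxisomal thiolase of fatty acid oxidation, had footprints of 46.2 and 24.0 RPKM in Y1CTL and 13.1 and 17.6 RPKM in Y1cKO with overlapping transcripts of 12.1 and 8.83 RPKM against 11.3 and 13.2 RPKM. Its near-identical copy Acaa1a lay in the same direction, with footprints of 52.1 and 61.2 RPKM against 46.5 and 46.0 RPKM and a TE change of -0.79. Reads of the 2 copies may have been divided between them by the authors' counting.

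Inka2, an inhibitor of the kinase PAK4, had footprints of 1.97 and 1.66 RPKM in Y1CTL and 0.584 and 0.492 RPKM in Y1cKO, with a TE change of -1.42. Those footprints were 21 and 11 reads in Y1CTL and 5 and 4 in Y1cKO. Spaar, a short lysosomal polypeptide that restrains mTORC1, had footprints of 3.75 and 3.02 RPKM in Y1CTL and 1.40 and 1.48 RPKM in Y1cKO and a TE change of -1.12. It rested on 10 and 5 footprint reads in Y1CTL and 3 and 3 in Y1cKO. Chd4, the helicase of the NuRD chromatin remodelling complex and the most abundant transcript of the 8, had footprints of 37.4 and 59.7 RPKM in Y1CTL and 22.0 and 31.1 RPKM in Y1cKO. The water channel Aqp11 had footprints of 8.71 and 7.35 RPKM in Y1CTL and 3.36 and 5.17 RPKM in Y1cKO. In all of these genes both Y1cKO footprint values lay below both Y1CTL values. They were chosen for a lower footprint, so this separation is no independent result. Their transcripts as deposited lay the other way, with both Y1cKO values above both Y1CTL values. After scaling to a common median, the transcript values of Spaar and Aqp11 overlapped between genotypes. Inka2 had 2.26 and 1.84 RPKM in Y1CTL against 3.10 and 2.62 RPKM in Y1cKO. Spaar had 4.20 and 3.85 against 4.99 and 4.92 RPKM. Chd4 had 57.9 and 54.4 against 73.4 and 76.4 RPKM, and Aqp11 0.946 and 1.35 against 1.75 and 1.40 RPKM. Fam83d (TE change -1.55) and Tmem273 (-1.57) had under 2 RPKM of footprints in every library. Tmem273 rested on 6 and 4 footprint reads in Y1CTL and 2 and 1 in Y1cKO.

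**Figure D2:**
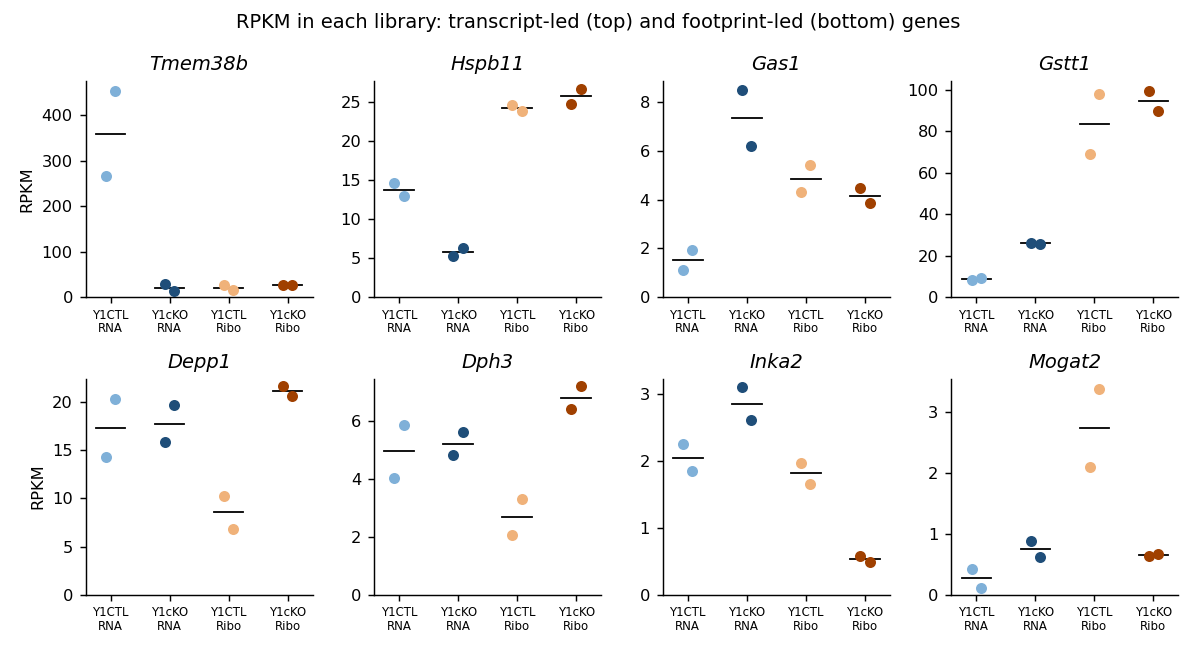
RPKM on a linear axis from 0 in each of the 8 libraries for 8 genes, with points for libraries and bars for the mean of 2. In the top row RNA-seq has the larger log2 change (Tmem38b at 266 and 454 against 28.1 and 12.9 RPKM). In the bottom row Ribo-seq has it (Depp1 at 10.3 and 6.84 against 21.7 and 20.7 RPKM). Values are as deposited, before scaling. The other assay also separates the genotypes in Hspb11, Inka2 and Mogat2, and in Tmem38b only before scaling.

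Genes of heat production and mitochondrial fuel use had higher TE in Y1cKO, with lower transcript values and small median footprint changes. Of 25 thermogenic genes 24 were tested, and 20 had a TE change above 0, with a median of 1.23, against -0.02 over all genes. The median RNA-seq change was -1.09 and the median Ribo-seq change 0.14, and 19 of the 24 were transcript-led. Over all 11792 genes tested, 47.7% had a TE change above 0 and 6118 had a footprint change above 0. Counts by direction in this and the following lists are to be read beside these shares. Of the 24 thermogenic genes, 2 had an unadjusted p under 0.05 for higher TE, where 2.98% of all genes did. Ucp1, the uncoupling protein that makes heat in brown and beige fat, had 609 and 1441 RPKM of transcript in Y1CTL and 48.1 and 544 RPKM in Y1cKO. Its footprints measured 3586 and 955 RPKM in Y1CTL and 3164 and 2481 RPKM in Y1cKO and overlapped between genotypes. The TE change was 3.29 (SE 1.60; limma adjusted p = 0.746), and the RNA-seq library lowest in Ucp1 was Y1cKO replicate 1, which held the muscle transcripts. Without that library it was 1.49, and 0.91 in the reduced fit.

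Cidea, a lipid droplet protein of beige fat, had 415 and 481 RPKM of transcript in Y1CTL and 88.6 and 285 RPKM in Y1cKO, with footprints of 2457 and 741 RPKM against 1857 and 1632 RPKM, and a TE change of 2.02. Letmd1, a mitochondrial protein of brown fat, had a TE change of 2.17, Esrrg, a nuclear receptor of oxidative metabolism, one of 1.26 and the fatty acid elongase Elovl6 one of 0.90, all transcript-led. Cox8b, a subunit of cytochrome c oxidase, was mixed with 0.80. In the reduced fit the TE change was 1.06 for Cidea, 0.88 for Letmd1, 0.41 for Esrrg and -0.052 for Cox8b. The coactivator Ppargc1a, with transcripts of 3.75 and 4.64 RPKM in Y1CTL and 4.16 and 5.17 RPKM in Y1cKO, had a TE change of -0.18 (SE 0.34), and one of 0.01 or 0.04 without replicate 2 of Y1cKO RNA-seq or Ribo-seq, and -0.47 in the reduced fit. The thermogenic median was 0.63 without Y1CTL Ribo-seq replicate 2 and 1.77 without Y1CTL Ribo-seq replicate 1. It was 0.71 without Y1cKO RNA-seq replicate 1 and 0.40 in the reduced fit, where 18 of 24 genes stayed above 0. The median footprint level of these genes was 138 and 43.7 RPKM in Y1CTL and 85.3 and 84.3 RPKM in Y1cKO. With Y1CTL values on both sides of Y1cKO, the small median change does not show that footprints were equal.

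Citrate cycle genes had a median TE change of 0.72, with 21 of 22 above 0, a median RNA-seq change of -0.66 and a median Ribo-seq change of 0.09. Sdhd, a subunit of succinate dehydrogenase, had transcripts of 122 and 191 RPKM in Y1CTL and 80.4 and 100 RPKM in Y1cKO and a TE change of 1.23. Fatty acid oxidation genes had a median of 0.54 over 23 genes. Among them Etfdh, which passes electrons from fatty acid oxidation to ubiquinone, had a TE change of 1.27. At an unadjusted p under 0.05, 1 of the 23 was higher and 2 were lower, where 2.98% and 3.27% of all genes were. Those with lower TE were Acaa1a and Acaa1b. Glycolysis genes had a median of 0.44 over 19 genes. In the reduced fit these medians were 0.28, 0.25 and 0.08, and the TE changes of Sdhd and Etfdh were 0.73 and 0.69.

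In respiratory chain genes footprints made up part of the TE change. Footprints were also higher in 18 of the 24 thermogenic, 20 of the 22 citrate cycle and 17 of the 23 fatty acid oxidation genes, and the difference between these lists was not tested. Of 79 nuclear genes 75 had a TE change above 0, with a median of 0.57, a Ribo-seq median of 0.24 and an RNA-seq median of -0.34, and 75 had a footprint change above 0. At an unadjusted p under 0.05, 10 of the 79 were higher, where 2.98% of all genes were, among them Ndufa12, Atp5l and Ndufa1 with TE changes of 0.98, 0.91 and 0.82 (Ndufa1 0.54 in the reduced fit). Ndufa12, a subunit of complex I, had footprints of 451 and 406 RPKM in Y1CTL and 554 and 469 RPKM in Y1cKO and transcripts of 298 and 351 RPKM against 192 and 250 RPKM. The 10 mitochondrially encoded genes, whose footprints come from mitochondrial ribosomes, all had a TE change above 0, with a median of 0.96 and medians of 0.53 in Ribo-seq and -0.44 in RNA-seq. For mt-Nd6, the one encoded on the other strand, footprints measured 1910.2 and 1507 RPKM in Y1CTL and 3197 and 2081 RPKM in Y1cKO, and transcripts 4600.5 and 4821 RPKM against 1638 and 2505 RPKM. The genes mt-Nd5 (1.05) and mt-Nd3 (0.98) were mixed. Strandedness of the counting is not given in the sources used here, so reads of mt-Nd6 and of the RNA opposite to it cannot be told apart. In the reduced fit the nuclear median was 0.19, with 55 of 79 above 0, and the mitochondrial median 0.52, with 9 of 10 above 0, while mt-Nd5 had 0.56 and mt-Nd3 0.64.

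Ribosomal protein genes, whose mRNAs carry the 5' terminal oligopyrimidine motif that ties their translation to mTORC1, had the same sign. Of 79 cytosolic ribosomal protein genes 70 had a TE change above 0, with a median of 0.41, and 77 had a footprint change above 0, with a median of 0.22. Among all 11792 genes, 47.7% had a TE change above 0 and 6118 had a footprint change above 0. Rpl31 measured 535 and 391 RPKM of footprints in Y1CTL and 620 and 525 RPKM in Y1cKO, which overlap, and had a TE change of 0.86. Rpl23 had 0.71. At an unadjusted p under 0.05, 2 of the 79 were higher, a share no larger than the 2.98% of all genes. In the reduced fit the median was 0.16, with 53 of 79 above 0, and Rpl23 had 0.46. The median was 0.13 without Y1CTL RNA-seq replicate 2 and 0.72 without Y1CTL RNA-seq replicate 1. Ribosomal protein genes have many processed copies in the genome, and how the counting treated reads of these is not given in the sources used here. Mitochondrial ribosomal protein genes had a median of 0.23, with 62 of 78 above 0, and other oligopyrimidine mRNAs a median of 0.18, with 14 of 18 above 0. These medians were 0.14 and 0.015 in the reduced fit. Translation factors had a median of 0.06 over 69 genes and aminoacyl-tRNA synthetases one of -0.02 over 37, against 0.012 and -0.027 in the reduced fit. The cap-binding protein relatives Eif4e3 (0.83) and Eif4e2 (0.86) had higher TE, and Eif4ebp1, which blocks cap binding, lower TE (-0.91), all 3 transcript-led.

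Replication-dependent histone genes had a median TE change above 0 in every fit that left out libraries, as thermogenic, citrate cycle and respiratory chain genes also did. Their mRNAs end in a stem-loop and mostly lack a poly(A) tail, and the RNA-seq was made from polyadenylated RNA. Of 51 genes tested among 61 found, 43 had a TE change above 0, with a median of 0.54, an RNA-seq median of -0.48 and a Ribo-seq median of 0.14. Past both lines were 10 of the 51, all higher, against 1.22% of all genes. H1f3, a linker histone, had transcripts of 4.83 and 3.85 RPKM in Y1CTL and 1.38 and 1.26 RPKM in Y1cKO, with overlapping footprints of 157 and 103 RPKM against 121 and 159 RPKM, and a TE change of 1.66 (SE 0.35). H2bc15 had transcripts of 27.8 and 26.97 RPKM in Y1CTL and 12.3 and 5.75 RPKM in Y1cKO and a TE change of 2.09. For H2bc9, with a TE change of 2.14, footprints of 10.9 and 10.8 RPKM in Y1CTL and 13.6 and 22.5 RPKM in Y1cKO added to a lower transcript. The median ranged from 0.45 to 0.72 as single libraries were left out and was 0.72 in the reduced fit, with 40 of 49 genes above 0. Histone genes are near-identical copies, so values of single members are uncertain. Without Y1CTL RNA-seq replicate 2, the library rich in lymphoid transcripts, it was 0.65.

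Matrix and stromal genes had lower TE, again through transcripts. Of 23 collagen genes tested 21 had a TE change below 0, with a median of -0.83, an RNA-seq median of 0.68 and a Ribo-seq median of -0.04, and 3 were past both lines, against 1.32% of all genes. Col5a3 had transcripts of 47.6 and 35.2 RPKM in Y1CTL and 83.0 and 92.9 RPKM in Y1cKO and a TE change of -1.20. The basement membrane collagens Col4a1 and Col4a2 were mixed, with footprints lower as well: Col4a1 measured 197 and 203 RPKM of footprints in Y1CTL and 125 and 160 RPKM in Y1cKO, and had a TE change of -1.05. Progenitor and fibroblast markers had a median of -0.45, with 4 of 19 above 0, and endothelial markers one of -0.43, with 2 of 16 above 0. In the reduced fit the collagen median was -0.19, with 16 of 22 below 0, the progenitor median 0.07 and the endothelial median -0.15, with 6 of 16 above 0, while Col4a1 had -0.56. The endothelial median was -0.091 without Y1CTL Ribo-seq replicate 1. Summed progenitor and fibroblast markers were highest in Y1cKO RNA-seq replicate 1, at 1823 RPKM against 505 to 712 RPKM in the remaining RNA-seq libraries. Without this library the progenitor median was -0.11, with 7 of 18 above 0, and the collagen median -0.56.

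Adipocyte identity genes had a median TE change of -0.40, with 3 of 19 above 0, at an RNA-seq median of 0.40 and a Ribo-seq median of -0.03. Cebpa, the transcription factor of adipocyte differentiation, had transcripts of 105 and 84.0 RPKM in Y1CTL and 223 and 218 RPKM in Y1cKO, footprints of 238 and 435 RPKM against 316 and 290 RPKM, and a TE change of -1.15 (SE 0.40). Adcy5, an adenylate cyclase, had a TE change of -1.17, the beta3-adrenergic receptor Adrb3 one of -0.63 and Pparg, the master regulator of adipogenesis, one of -0.21, which was 0.10 in the reduced fit. The triglyceride synthesis enzyme Dgat2, with footprints of 1129 and 1403 RPKM in Y1CTL and 932 and 1022 RPKM in Y1cKO, was mixed at -0.80. The reduced fit gave an adipocyte median of -0.23, with Adcy5 at -0.75, Adrb3 at -0.31 and Dgat2 at -0.49. Lipolysis and lipid droplet genes had a median of -0.25 over 16 genes, fatty acid synthesis genes one of -0.13 over 17, triglyceride synthesis genes one of 0.10 over 19 and cholesterol synthesis genes one of -0.01 over 22. These medians were -0.11, 0.24, -0.071 and 0.46 in the reduced fit.

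Erythroid genes had the lowest median after the muscle genes, -1.07 with 7 of 7 below 0, and both parts contributed: the RNA-seq median was 0.63 and the Ribo-seq median -0.60, with all 7 lower in footprints. Hba-a2, an alpha-globin gene, had transcripts of 24.6 and 22.2 RPKM in Y1CTL and 113 and 56.5 RPKM in Y1cKO, and footprints of 236 and 121 RPKM against 87.4 and 142 RPKM, which overlap. Hba-a1, its near-identical copy, had a TE change of -1.95 against -2.19, and Bpgm, a red cell enzyme, one of -1.16. The erythroid median in the reduced fit was -0.15, and Hba-a1 had -1.08. T cell markers had a median of 2.04 with 15 of 15 above 0, and B cell and lymph node markers one of 2.64 with 16 of 16 above 0. These are values of 1 library. Cd8b1, a coreceptor chain of cytotoxic T cells, had 14.8 RPKM of transcript in Y1CTL replicate 2 and 0.164 to 0.852 RPKM in the other 3. Without that library 2 genes of each list were left above the minimum, with medians of -0.09 and -0.18, and in the reduced fit the medians were 0.97 over 3 and -0.21 over 2 genes. The 6 skeletal muscle genes tested had a median of -1.63, -0.44 over 4 genes in the reduced fit and -0.56 over 4 genes without Y1cKO RNA-seq replicate 1, where actin Acta1 measured 61.8 RPKM against 0.349 to 1.25 RPKM in the other RNA-seq libraries. Macrophage markers had a median of -0.15 over 17 genes, which turned to 0.029 in the reduced fit and to 0.10 without Y1CTL Ribo-seq replicate 2.

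**Figure D3:**
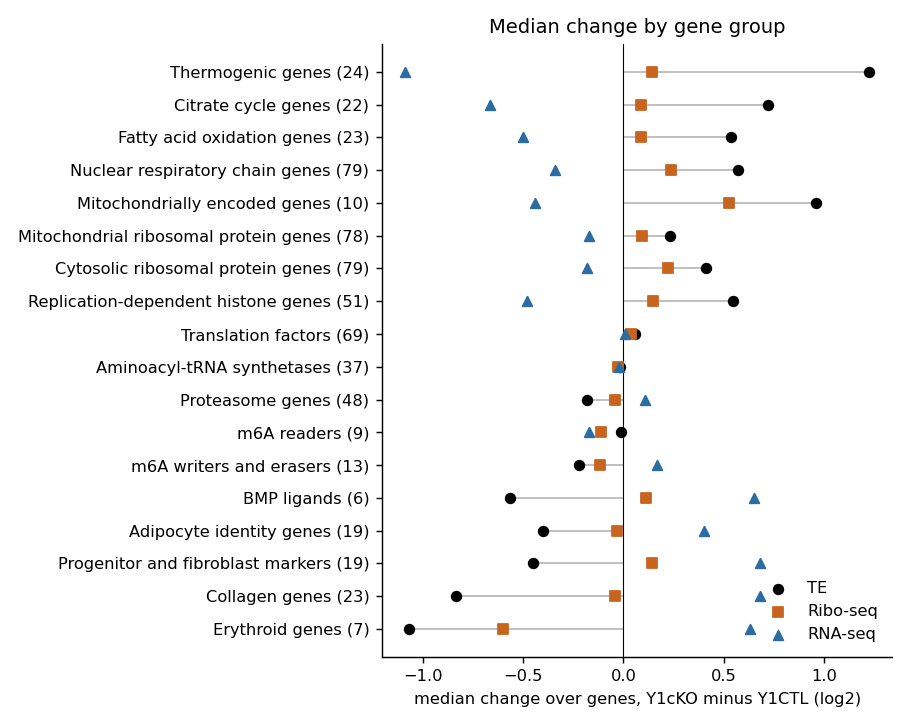
Median change of 18 gene groups, log2 and Y1cKO minus Y1CTL, in TE (circles), Ribo-seq (squares) and RNA-seq (triangles), with the number of genes tested in parentheses. Ribo-seq medians stay between -0.60 and 0.53, while RNA-seq medians of the thermogenic genes (-1.09) and collagens (0.68) lie farther from 0 than their Ribo-seq medians (0.14 and -0.04).

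**Figure D4:**
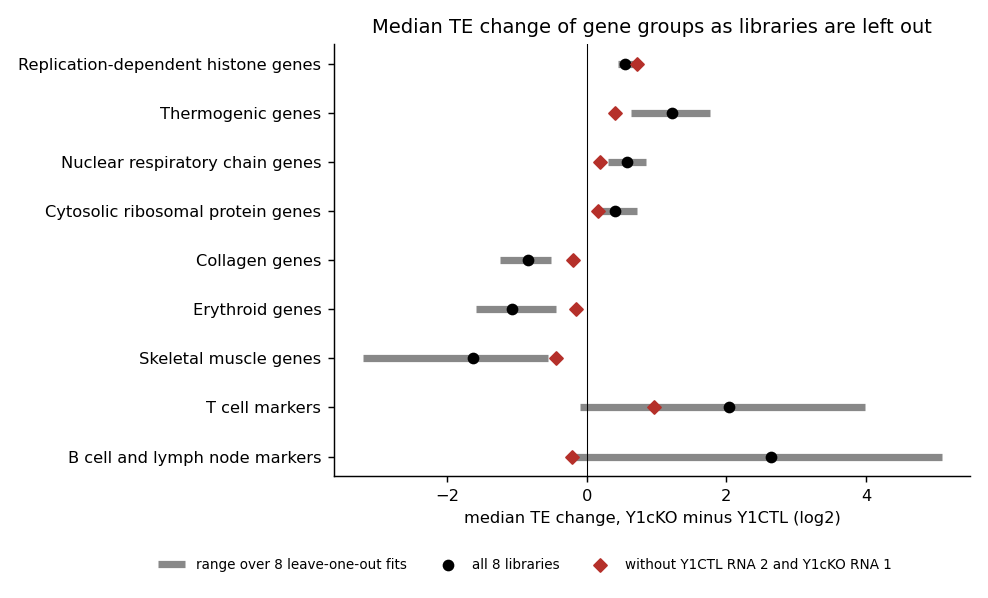
Median TE change of 9 gene groups with all 8 libraries (circles), its range over 8 fits that each leave out 1 library (bars), and its value without both RNA-seq libraries that stand apart (diamonds). Histone genes stay between 0.45 and 0.72, whereas B cell and lymph node markers range from -0.18 to 5.08.

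The remaining groups had smaller medians, and without scaling, which lowers all TE changes, the medians of triglyceride synthesis genes, translation factors and polyamine genes were -0.06, -0.11 and -0.11. Genes with upstream open reading frames that answer to the integrated stress response had a median TE change of -0.11 over 17 genes, iron genes one of -0.22 over 10, polyamine genes one of 0.05 over 9, selenoprotein genes one of -0.12 over 20, heat shock genes one of -0.18 over 21, proteasome genes one of -0.18 over 48, immediate early genes one of 0.23 over 22 and zinc finger genes named Zfp one of 0.00 over 296. Medians of the reduced fit were 0.0058 for iron, 0.15 for polyamine, -0.019 for selenoprotein, -0.033 for heat shock, -0.055 for proteasome, 0.12 for immediate early and 0.034 for zinc finger genes. The immediate early median was -0.024 without Y1CTL RNA-seq replicate 2. Ftl1, the ferritin light chain, had transcripts of 103 and 114 RPKM in Y1CTL and 352 and 233 RPKM in Y1cKO and a TE change of -1.12, although processed copies of this gene may share its reads. The selenoproteins Selenom (-1.34, and -0.87 in the reduced fit) and Selenoh (1.09) lay in opposite directions. Interferon-stimulated genes had a TE median of -0.18 over 23 genes, but all 23 had lower footprints in Y1cKO, where 5674 of all 11792 genes did. The median Ribo-seq change of the 23 was -0.29 and their median RNA-seq change -0.11. Their median footprint level was 15.8 and 15.4 RPKM in Y1CTL and 13.1 and 11.8 RPKM in Y1cKO, which do not overlap. None of the 23 was past an unadjusted p of 0.05 for TE. Their TE median was 0.14 over 22 genes in the reduced fit.

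No tested gene of the m6A machinery passed an unadjusted p of 0.05 for TE. Ythdf1 itself had 8.01 and 11.5 RPKM of transcript in Y1CTL and 7.17 and 7.98 RPKM in Y1cKO, and footprints of 17.3 and 16.0 RPKM against 12.7 and 15.7 RPKM. Both assays were lower in Y1cKO, without overlap, and the TE change was 0.25 (SE 0.29; limma adjusted p = 0.816) and -0.08 in the reduced fit. The values cover the whole gene and not the deleted exon, so they check the label only in part. Ythdf2 (0.13) and Ythdf3 (0.12) had TE changes below their SE, which turned to -0.03 and -0.04 without scaling. Over 9 m6A readers the median was -0.01, with Hnrnpa2b1 at -0.37 and Fmr1 at -0.56. Over 13 writers and erasers it was -0.22, with 4 above 0. Mettl14 (-0.68), Rbm15 (-0.47) and Zc3h13 (-0.57), all parts of the methyltransferase complex, were mixed, with footprints of Mettl14 at 14.7 and 14.3 RPKM in Y1CTL and 9.99 and 12.3 RPKM in Y1cKO. The reader median of the reduced fit was 0.13, with Hnrnpa2b1 at -0.57 and Fmr1 at -0.33, while Mettl14 had -1.05 and Zc3h13 -0.88. Positions of m6A on these mRNAs were not analysed here, so m6A-marked transcripts were not compared with the others.

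Bmp8b, a secreted BMP ligand that promotes thermogenesis, could not be given a TE change, since its mean RNA-seq level was below 0.5 RPKM. It had 2 and 10 transcript reads in Y1CTL and 0 and 10 in Y1cKO, that is 0.172 and 0.685 RPKM against 0 and 0.207 RPKM. Its footprints numbered 92 and 6 reads in Y1CTL and 5 and 3 in Y1cKO, that is 6.48 and 0.681 RPKM against 0.439 and 0.277 RPKM. Both Y1cKO footprint values lay below both Y1CTL values, and the size of the gap rests on Y1CTL replicate 1 alone. A difference in the translation of Bmp8b relative to its transcript was not measurable with so few transcript reads. Of 14 genes of the BMP family list 6 were tested, all with a TE change below 0 and a median of -0.57, at a Ribo-seq median of 0.11 and an RNA-seq median of 0.65. Bmp2 (-0.79) and Bmp3 (-0.71) are ligands, and Bmp1 (-0.61) is a metalloprotease that shares only the name. In the reduced fit, 3 of the 6 were below 0, with a median of 0.07, and Bmp1 had -0.063.

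TE change varied with the length of the coding sequence, and here footprints took part. The genes were divided into 10 bins by coding length. In the shortest bin, 111 to 534 bases and 1185 genes, the median TE change was 0.16, and in the longest, 3444 to 26397 bases and 1179 genes, it was -0.13. The Ribo-seq median went from 0.12 to -0.06 and the RNA-seq median from -0.05 to 0.07. As single libraries were left out, the shortest bin stayed between 0.11 and 0.21 and the longest between -0.18 and -0.10. Without ribosomal protein and respiratory chain genes, many of which are short, the shortest bin had a median of 0.12. Bins by 5' leader length spanned medians of -0.07 to 0.03 and bins by the length of the 3' UTR -0.07 to -0.0016, with no order from short to long in the latter. RPKM was taken over transcript length in RNA-seq and over coding length in Ribo-seq, and 0.5 was added after that division, so length does not cancel from the TE change. Its part in this trend was not tested.

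**Figure D5:**
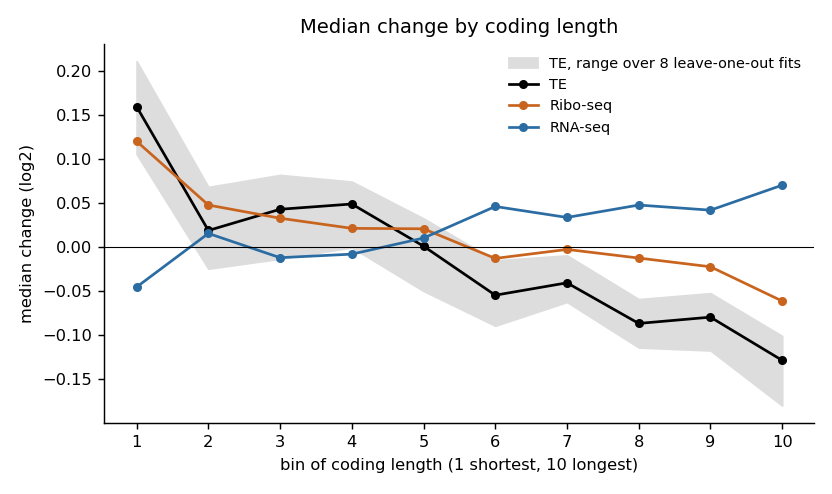
Median TE, Ribo-seq and RNA-seq change, log2 and Y1cKO minus Y1CTL, in 10 bins of genes by coding length, with the range of the TE median over 8 fits that each leave out 1 library in grey. The TE median goes from 0.16 in the shortest to -0.13 in the longest bin, with the Ribo-seq and RNA-seq medians moving in opposite directions.

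The number of calls depended on 1 library. Without Y1CTL RNA-seq replicate 1, which leaves the lymphoid-rich library alone in that arm, 597 of 11844 genes (5.04%) passed the adjusted p, 484 higher and 113 lower, among them all 31 lymphoid markers tested. In the other 7 fits that leave out 1 library the number was 0.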

How the data were processed

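RNA-seq and Ribo-seq libraries of iWAT were deposited as 1 table of RPKM values per library. Per the submitters' processing notes and the study's methods, the authors aligned to mm8 using HISAT2 2.2.1, and they deposited RPKM over transcript length (RNA-seq) or coding length (Ribo-seq). DESeq2 is listed in those notes without a stated use. For the counter, the annotation and whether counting used strand, the answer is: not given in the sources used here. All RPKM values (100%) were whole multiples of 1 read within 0.01, which gave reads and depth. Genes that a Ribo-seq table did not list were set to 0. Intervals and floors cover counting error only.

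On log2(RPKM + 0.5), limma 3.58.1 (in R 4.3.3, trend by intensity) tested TE as the assay by genotype interaction in all 8 libraries, and the genotype difference in each assay in its 4, with Benjamini-Hochberg adjustment over all genes tested. An exact permutation test of 2 against 2 cannot go below p = 0.333 and was not used. The fits were checked for sign and size on simulated libraries with known footprint changes. This does not measure the error rate or the power in these data. Tables and figures were made with Python, pandas and matplotlib.

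Named genes were the 12 with the smallest p in each direction past both lines, up to 3 members of each of 37 lists by smallest p, and Ythdf1, Ythdf2, Ythdf3, Bmp8b, Ucp1, Ppargc1a, Cidea, Pparg, Adrb3 and Cox8b. The footprint-led genes past both lines were added after their values were seen. The members and lists were chosen with earlier results of these data known, and lists are described by counts and medians with no test.

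The main fit did not pair libraries. In the replicate block alternative, libraries of a genotype that share a number were taken as 1 animal, since the protocol divides each lysate. Across genes, the deviations of such a pair from the means of their groups correlated at -0.14 in Y1CTL and -0.24 in Y1cKO. In the Y1cKO RNA-seq tables, the replicate number in the column header is the opposite of that in the label, and the labels were followed. Alternatives covered the pseudocount, the minimum level, the scaling, the trend, library weights, voom on reads, a replicate block and libraries left out.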

Additional observations from a re-analysis of the deposited data

How the results depend on the processing

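No gene passed the adjusted p under any alternative except without Y1CTL RNA-seq replicate 1. As single libraries were left out, the calls ranged from 0 to 597, the genes past both lines from 82 to 829 higher and from 88 to 493 lower, and the median TE change from -0.06 to 0.01. The genes past both lines numbered 98 lower at a pseudocount of 1 RPKM, 43 higher and 57 lower at a minimum mean of 5 RPKM (fewer genes tested), 272 lower without scaling (median TE change -0.1744), 261 higher with voom on reads, and 261 higher and 303 lower without both RNA-seq libraries that stand apart. With the replicate block 137 were higher and 143 lower, with 0 past the adjusted p, so the block changed no call; the crossed pairing, chosen after seeing the data, gave 241 higher and 195 lower and 0 past the adjusted p. Without both RNA-seq libraries that stand apart, TE changes turned to -0.052 for Cox8b, -0.082 for Ythdf1 and 0.10 for Pparg, and without scaling to -0.030 for Ythdf2 and -0.042 for Ythdf3. Over single libraries left out, Ppargc1a ranged from -0.41 to 0.044 and Ythdf3 from -0.022 to 0.26. The cause of these changes was not tested. The shallow Y1CTL RNA-seq libraries limit genes of low level. Bmp8b was left out by its mean RNA-seq level, and it also had only 0 and 10 transcript reads in the deeper Y1cKO libraries. With 1 library left in an arm, that library is assumed to vary like the others.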
